A study of Mus musculus with 7 samples.

Results

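The let-7 family of guide strands was followed through the whole kidneys of wild-type and megabladder mice. Its members were the 9 mouse microRNAs that the array lists as mmu-let-7a, mmu-let-7b, mmu-let-7c, mmu-let-7d, mmu-let-7e, mmu-let-7f, mmu-let-7g, mmu-let-7i and mmu-miR-98, written below without the prefix; they were taken by name, and starred names were left out. They were 9 of 611 mouse microRNAs on the array and 9 of the 213 bright enough to be tested. In the megabladder line a mutation leaves the bladder wall poor in smooth muscle, urine backs up, and the kidneys become dilated. Total RNA came from frozen whole kidneys of males 3.5 to 4 weeks old, of 4 wild-type mice (mgb+/+) and 3 homozygous mutants (mgb-/-), each read on its own single-colour Agilent array. Of the 4 mutants in the series' design text, mouse 1 was not analysed here. No further allele, agent or strain is given for either genotype in the sources used here.

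MicroRNAs are short RNAs that guide repressor complexes to messenger RNAs, chiefly by pairing through their seed, the bases next to the 5′ end. let-7 RNAs were first known as timing regulators of development, accumulate as tissues differentiate, and repress growth and fetal programme genes such as Hmga2, Lin28b and the Ras genes. Lin28 proteins in turn bind let-7 precursors and block their maturation. Each hairpin precursor yields a guide strand, and its opposite arm, written with a star, is mostly degraded.

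The sequences are printed because the members are nearly the same molecule, which bears on both their targets and their measurement. All 9 were found in RefSeq (GRCm38.p6) and all are 22 bases long; capitals mark the seed, bases 2 to 8 from the 5′ end.
let-7a: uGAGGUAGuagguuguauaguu
let-7b: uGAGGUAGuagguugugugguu
let-7c: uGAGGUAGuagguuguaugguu
let-7d: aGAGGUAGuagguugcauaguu
let-7e: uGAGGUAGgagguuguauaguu
let-7f: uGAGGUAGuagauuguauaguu
let-7g: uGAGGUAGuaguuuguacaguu
let-7i: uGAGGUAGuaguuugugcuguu
miR-98: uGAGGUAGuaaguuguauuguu

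All 9 shared the seed GAGGUAG. Of the 611 array names, 463 were found in the RefSeq table, and the only 9 among these with that seed were the members. Counting from the 5′ end and naming the first member's base first, let-7a and let-7e differed by U9G alone, let-7a and let-7c by A19G, let-7a and let-7f by G12A, and let-7b and let-7c by G17A. These 4 pairs were the nearest, and let-7d and let-7i, at 6 differences, were the farthest apart of the 36 pairs.

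In the RefSeq annotation the 9 guides come from 12 precursor genes on 7 chromosomes. Mirlet7a-1, Mirlet7f-1 and Mirlet7d lie together on chromosome 13, Mirlet7b and Mirlet7c-2 on chromosome 15 within the noncoding gene Lncppara, and Mirlet7f-2 and Mir98 on chromosome X within Huwe1, a ubiquitin ligase gene. In another arrangement a let-7 gene sits beside genes of the miR-99/miR-100 and miR-125 families. These are Mirlet7c-1 with Mir99a and Mir125b-2 on chromosome 16, Mirlet7e with Mir99b and Mir125a on chromosome 17 within Spaca6, and Mirlet7a-2 with Mir100 and Mir125b-1 on chromosome 9 within the noncoding gene Mir100hg. Mirlet7g (chromosome 9, within Wdr82) and Mirlet7i (chromosome 10) had no other of these genes within 100000 bases. let-7a, let-7c and let-7f each have more than 1 gene, so their signal adds up loci that cannot be told apart on the array.

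Each array held 1857 probes, of which 19.0% to 21.8% were well above background. All arrays shared 1 slide, with wild-type arrays in row 1 and megabladder arrays in row 2, which means that the effects of row and of genotype cannot be told apart. The scaling factor of an array, the 75th percentile of its commonly detected probes, was 348 to 496 scanner units in wild-type and 224 to 333 in megabladder arrays (exact permutation, 2-sided, p = 0.0286, and 4 against 3 arrays with their 35 splits can give no smaller one). Wild-type mice 3 and 4 stood apart from the other arrays on the first principal component, at 7.22 and 6.92 against -4.10 to -0.99. The kidney tubule list (7 microRNAs, miR-192, miR-194 and miR-30a among them) was tested in full and overlapped between genotypes, with summed levels of 5725 to 6404 units in wild-type and 5980 to 6331 in megabladder kidneys. The brightest members weigh most in such a sum. In log2 units, megabladder minus wild-type, its members ranged from -0.11 (miR-10b) to 0.50 (miR-204). miR-30d was at 0.26 and the median at 0.0007, and no member had a limma adjusted p under 0.05. The markers of liver, neurons and islets, miR-122, miR-124 and miR-375, were too dim to test. Their summed levels, 0.21 to 0.29 units in wild-type and 0.45 to 11.9 in megabladder kidneys, did not overlap. These sums were taken without the floor of 11.4 units used for levels. They lay below it in wild-type and at most just above it in megabladder kidneys, so the separation is among signals too dim to test. By the labels every array is a different mouse, and the number of arrays limits the precision.

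The family was among the brightest signals in both genotypes. let-7b, let-7c and let-7a ranked 2, 3 and 5 among the 213 tested microRNAs by mean level, let-7f ranked 8, let-7g 10, let-7d 14 and let-7i 19. let-7e came at 44 and miR-98 at 71. The 9 members gave 24.6% to 25.9% of the summed mouse microRNA signal in wild-type and 21.7% to 23.0% in megabladder kidneys, a share that needs no scaling and in which the genotypes did not overlap. Different probes can shine unequally for equal amounts of RNA, so this is an order of signal and not of abundance.

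Levels are given as log2 of scaled signal, in units where the lowest value used, the floor, is 3.51. let-7b and let-7c, the top of the order, were not separated in wild-type kidneys: let-7b was above let-7c in 2 of 4 wild-type arrays and in 3 of 3 megabladder arrays. Below them each step held on all 4 wild-type arrays, from 0.10 ± 0.07 log2 units (SD, n = 4) between let-7c and let-7a, through 1.28 ± 0.08 between let-7i and let-7e, to 1.60 ± 0.01 between let-7e and miR-98. In megabladder kidneys the step from let-7d to let-7i, 0.29 ± 0.29 (SD, n = 3), held on 2 of 3 arrays. The step from let-7e down to miR-98 was 1.24 ± 0.19 there.

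**Figure D1:**
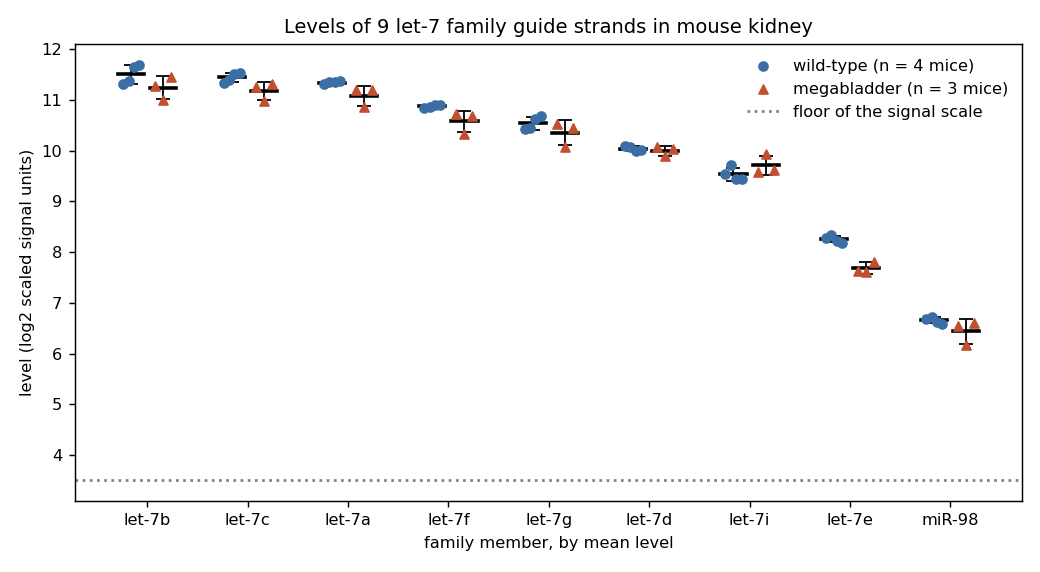
Level of each family member on each array, in log2 scaled signal units, with mean (bar) and SD (whisker) for 4 wild-type mice (circles) and 3 megabladder mice (triangles); the dotted line is the floor at 3.51. Members run from let-7b near 11.4 to miR-98 near 6.56 (means of all arrays), and for let-7e the 3 triangles lie below the 4 circles.

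let-7e was lower in megabladder kidneys by 1.49-fold, and it was the single member past the threshold. Its level was 8.27, 8.33, 8.23 and 8.19 in wild-type mice 1 to 4 and 7.62, 7.61 and 7.81 in megabladder mice 2 to 4. All 3 megabladder values lay below all 4 wild-type values. The difference was -0.57 log2 units with a 95% interval of -0.79 to -0.36 (limma, Benjamini-Hochberg adjusted p = 0.0315 over 213 microRNAs). A call of a lower level was made for 0.469% of all tested microRNAs, so let-7e was the one such call in the table. In whole tissue, fewer cells that hold let-7e and less let-7e per cell cannot be told apart.

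The let-7e call depended on which arrays were kept. Without wild-type mouse 1, 2, 3 or 4 the limma adjusted p was 0.0686, 0.0702, 0.101 or 0.0919, and without megabladder mouse 2, 3 or 4 it was 0.108, 0.0251 or 0.0197, while the difference stayed between -0.64 and -0.54 with any one array left out. Over all alternatives the difference was negative, from -1.32 to -0.37 with adjusted p from 0.00523 to 0.673, and it passed the threshold in 9 of 23. The mouse number is also the slide column of the array: within columns 2, 3 and 4 the difference of let-7e was -0.71, -0.62 and -0.37, and with the number as a block, which drops wild-type mouse 1, it was -0.57 (limma adjusted p = 0.0788).

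let-7a, let-7c and let-7f, which differ from each other by 1 or 2 bases, stood lower in megabladder kidneys by like amounts without passing the threshold. let-7a was at 11.30, 11.34, 11.34 and 11.37 in wild-type mice 1 to 4 and at 11.19, 10.85 and 11.19 in megabladder mice 2 to 4. The wild-type values spanned 0.07 log2 units, and the megabladder values lay below them with mouse 3 the lowest. The difference was -0.26 (95% interval -0.52 to -0.003, limma adjusted p = 0.214).

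let-7c stood at 11.34, 11.40, 11.50 and 11.54 in wild-type mice 1 to 4 and at 11.25, 10.97 and 11.30 in megabladder mice 2 to 4. let-7f stood at 10.84, 10.85, 10.89 and 10.90 against 10.72, 10.33 and 10.68 in the same order of mice. Neither overlapped between genotypes, and megabladder mouse 3 was again the lowest. The differences were -0.27 for let-7c and -0.30 for let-7f, both with a limma adjusted p of 0.214. Without megabladder mouse 3 the differences were -0.15 for let-7a, -0.16 for let-7c and -0.17 for let-7f.

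let-7b, let-7g and miR-98 had lower means in megabladder kidneys but overlapped. let-7b was at 11.32, 11.37, 11.64 and 11.68 in wild-type mice 1 to 4 and at 11.27, 11.00 and 11.45 in megabladder mice 2 to 4. Wild-type mice 3 and 4 were its high values, and megabladder mouse 4 lay above wild-type mice 1 and 2. The difference was -0.26 (95% interval -0.62 to 0.09, limma adjusted p = 0.394).

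let-7g had 10.42, 10.45, 10.62 and 10.68 in wild-type mice 1 to 4 and 10.53, 10.07 and 10.45 in megabladder mice 2 to 4. miR-98, the dimmest member, had 6.68, 6.72, 6.63 and 6.58 against 6.54, 6.16 and 6.61 in the same order. In both, megabladder mouse 3 was the lowest array and at least 1 other megabladder mouse lay within the wild-type range. The differences were -0.19 for let-7g and -0.22 for miR-98, with limma adjusted p of 0.512 and 0.395.

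let-7d and let-7i did not share the lower values. let-7d was at 10.08, 10.08, 9.99 and 10.00 in wild-type mice 1 to 4 and at 10.07, 9.89 and 10.03 in megabladder mice 2 to 4, a difference of -0.04 (95% interval -0.25 to 0.17, limma adjusted p = 0.882). let-7i was at 9.54, 9.72, 9.44 and 9.43 against 9.58, 9.93 and 9.62. Both overlapped between genotypes, and megabladder mouse 3, the lowest array for let-7d, was the highest for let-7i. The difference of let-7i was 0.18 (95% interval -0.12 to 0.47, limma adjusted p = 0.488).

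As a list, 8 of the 9 members had a difference below 0, against 31.9% of all 213 microRNAs and 36 of the 71 at least as bright as miR-98. Probes of near-identical members could share signal, so the 9 may not be separate observations. The median member difference was -0.26, against 0.09 for all tested microRNAs and -0.003 for the 71 at least as bright as miR-98; without megabladder mouse 3 the member median was -0.14, let-7g was at -0.05, miR-98 at -0.08, let-7i at 0.07 and let-7d at 0.01. Genotypes did not overlap, with megabladder lower, for 4 of the 9 members and for 3.29% of all microRNAs. An unadjusted limma p under 0.05 with a lower level was likewise found for 4 of the 9, against 2.82% of all.

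How far below 0 the members stood depended on the scaling of arrays. Scaling by all probes, by the median, by quantiles or not at all put the median difference of all microRNAs at -0.62, -0.06, -0.14 or -0.50. let-7e was at -1.32, -0.73, -0.61 and -1.19 in that order, which is -0.69 to -0.47 relative to the median of all microRNAs over these and the reported scaling. let-7d turned to 0.06 with quantiles and let-7i to -0.56 with all probes and -0.43 unscaled. Relative to the median of all microRNAs, let-7a lay between -0.38 and -0.35 except with quantiles, where it was at -0.03. Apart from quantiles, these scalings shift all microRNAs of an array alike, so their relative values are close by construction.

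**Figure D2:**
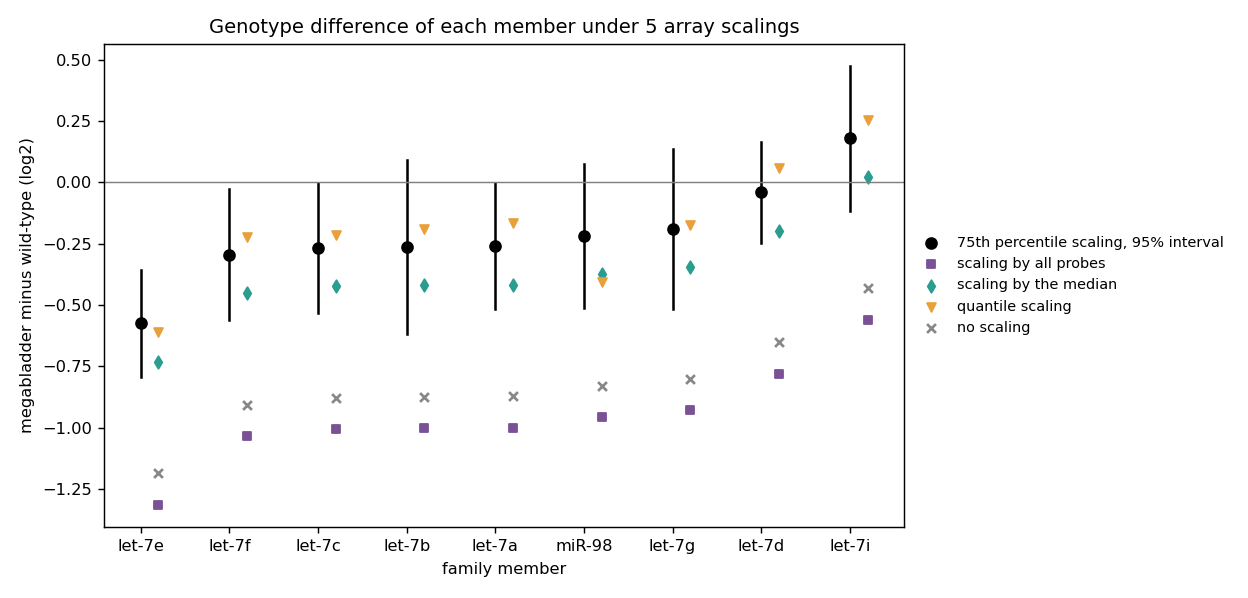
Difference in log2 level, megabladder minus wild-type, of each member: black points with 95% intervals use the 75th percentile scaling of the text, coloured marks the other 4 scalings. let-7e is the lowest member under each of the 5 scalings, and let-7i, at 0.18 with the reported scaling, the highest.

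Ratios of 2 members on the same array do not need a scaling factor, so the members were set against each other in all 36 pairs. The genotypes did not overlap in 12 of the 36 ratios (33.3%), against 25.5% of all 22578 pairs of tested microRNAs and 12.2% of the 2485 pairs at least as bright as miR-98. let-7e entered 6 of the 12, and was lower against let-7a, let-7c, let-7d, let-7f, let-7i and miR-98. let-7i entered 4 and let-7d 4, each time as the relatively higher partner. Of these pairs 11 had an unadjusted exact permutation p of 0.0286, the smallest possible, but adjusted over all 22578 pairs none was below 0.209.

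let-7e was the lowest of the 9 against its relatives. Its log2 ratio to miR-98 was 1.59, 1.61, 1.60 and 1.60 in wild-type mice 1 to 4 and 1.08, 1.44 and 1.21 in megabladder mice 2 to 4. The wild-type ratios agreed to 0.01 (SD), and all 3 megabladder ratios lay below them, by 0.36 on average. Against let-7i the difference was largest, at -0.75, and against let-7f smallest, at -0.28. Against let-7b and let-7g it was -0.31 and -0.39 with overlap, and the ratios of wild-type mice 3 and 4 lay apart from those of mice 1 and 2.

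The log2 ratio of let-7d to let-7e was 1.81, 1.75, 1.76 and 1.82 in wild-type mice 1 to 4 and 2.45, 2.28 and 2.22 in megabladder mice 2 to 4. The genotypes were separated, with a difference of 0.53 and spreads of 0.04 (SD, n = 4) and 0.12 (SD, n = 3). After a normexp background correction with an offset of 50, let-7e against let-7d was at -0.26 with overlap, and with no offset at -0.40 without overlap. In contrast, let-7a to let-7f gave 0.46, 0.49, 0.45 and 0.47 against 0.48, 0.52 and 0.51. That ratio, of products that share a cluster and differ by 1 base, overlapped and moved by 0.03.

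No ratio among let-7a, let-7b, let-7c, let-7f, let-7g and miR-98 separated the genotypes. The largest of these differences was -0.11, for let-7f to let-7g. Within the chromosome 13 cluster, let-7d separated from its neighbours: let-7a to let-7d was lower by 0.22 without overlap (1.30 ± 0.07 against 1.08 ± 0.10), and let-7d to let-7f was higher by 0.25 without overlap. The other cluster pairs overlapped, with differences of 0.003 for let-7b to let-7c and -0.08 for let-7f to miR-98. let-7f has a second gene outside each of its clusters, and let-7a and let-7c likewise, so these ratios are of summed products.

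Without wild-type mice 3 and 4, 24 of the 36 ratios did not overlap between genotypes; with 2 against 3 arrays separation is easier to reach. The normexp correction with its offset of 50 left let-7e at -0.01 against each of let-7a, let-7b, let-7c and let-7f, with overlap, and the same correction with no offset left -0.16 to -0.14, with overlap. Against let-7i, let-7e was lower without overlap in all 22 settings run for ratios, the reported one included, from -0.87 to -0.49. Against let-7a it was lower without overlap in 19 of the 22.

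**Figure D3:**
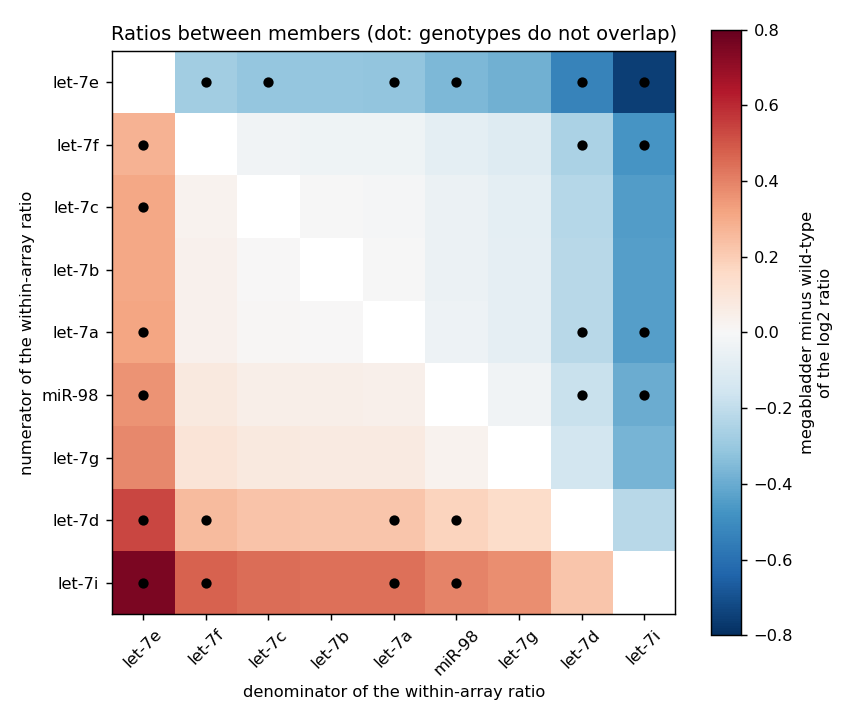
Difference between genotypes (megabladder minus wild-type, colour, log2) of the within-array ratio of the member in each row to the member in each column; a dot marks ratios in which the 3 megabladder and 4 wild-type arrays do not overlap. The let-7e row is blue throughout with 6 dots, and let-7i and let-7d are higher against 4 members each.

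let-7 members were also set against the other products of their clusters, miR-99b and miR-125a-5p for let-7e and miR-100 for let-7a. These mature partners are printed with their seeds in capitals to show that they do not share the let-7 seed.
miR-99b: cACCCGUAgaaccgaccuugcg
miR-125a-5p: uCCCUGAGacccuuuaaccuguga
miR-100: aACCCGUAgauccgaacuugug

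The log2 ratio of let-7e to miR-99b was 2.81, 2.77, 3.02 and 3.01 in wild-type mice 1 to 4 and 2.23, 1.78 and 2.28 in megabladder mice 2 to 4. The ratio of let-7e to miR-125a-5p was 1.64, 1.57, 1.86 and 1.81 against 1.09, 0.67 and 1.31. Neither overlapped, and megabladder mouse 3 was the lowest in both. The differences were -0.80 and -0.70, each with an exact permutation p of 0.0286 and 0.209 after adjustment over all pairs.

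The partners themselves did not pass the threshold. miR-99b differed by 0.23 (95% interval -0.12 to 0.58, limma adjusted p = 0.455) and miR-125a-5p by 0.13 (interval -0.24 to 0.49, adjusted p = 0.728), both with overlap. With scaling by all probes they were at -0.51 and -0.61. The ratio of let-7e to either partner was lower without overlap in every setting run, 21 for miR-99b and 22 for miR-125a-5p, and lay between -0.96 and -0.47.

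At the let-7a-2 cluster the log2 ratio of let-7a to miR-100 was 6.09, 6.07, 6.41 and 6.42 in wild-type mice 1 to 4 and 5.71, 5.38 and 5.97 in megabladder mice 2 to 4. The genotypes did not overlap, and the difference was -0.56 (exact permutation p = 0.0286, adjusted 0.209). miR-100 differed by 0.30 (limma adjusted p = 0.224), with overlap. let-7a to miR-125b-5p, at -0.31, overlapped.

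At the let-7c-1 cluster the ratios overlapped, with -0.15 for let-7c to miR-99a and -0.31 for let-7c to miR-125b-5p. In all, 3 of 6 ratios of a member to a cluster partner did not overlap, against 25.5% of all 22578 pairs of tested microRNAs. Without megabladder mouse 4 it was 5 of 6, where fewer arrays make separation easier to reach. Of the 8 partner names on the array, 5 were bright enough to test; miR-125a-3p, miR-125b-3p and miR-125b* were not.

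The starred arms of 3 members, in contrast to the guides, had higher values in megabladder kidneys. The hairpins of let-7b and let-7d are printed, with that of let-7e, to show the guide and the starred arm of one precursor; capitals mark the 5′ arm, which gives the guide, and the 3′ arm.
Mirlet7b: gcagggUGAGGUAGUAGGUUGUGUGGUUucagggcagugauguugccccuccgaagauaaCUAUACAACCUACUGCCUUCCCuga
Mirlet7d: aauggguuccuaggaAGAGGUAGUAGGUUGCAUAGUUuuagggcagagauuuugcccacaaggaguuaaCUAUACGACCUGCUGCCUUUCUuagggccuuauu
Mirlet7e: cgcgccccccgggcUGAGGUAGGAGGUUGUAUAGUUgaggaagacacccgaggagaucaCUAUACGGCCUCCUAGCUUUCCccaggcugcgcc

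Of 7 starred let-7 names on the array, 3 were bright enough to test, and none of them belongs to let-7e. let-7b* was at 3.76, 3.80, 3.51 and 3.65 in wild-type mice 1 to 4 and at 4.53, 4.20 and 4.82 in megabladder mice 2 to 4. let-7d* was at 3.53, 3.63, 3.51 and 3.51 against 4.29, 4.13 and 4.48. All megabladder values lay above all wild-type values, which sat at or near the floor of 3.51. Of all 213 tested microRNAs, 18.8% likewise stood higher in megabladder arrays without overlap.

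let-7b* rose by 0.84 (limma adjusted p = 0.0315), and 2.82% of all tested microRNAs were called higher. let-7d* had a difference of 0.76 with the same adjusted p, from the 1 of its 4 probes that was well above background on at least 3 arrays, a filter that the 3 megabladder arrays alone can satisfy. With no such filter let-7d* was at 0.19 (limma adjusted p = 0.117), in the authors' deposited table at 0.06 (0.776), and with all arrays required above background it was not tested. let-7f* had a difference of 0.70 (limma adjusted p = 0.0551), and it too was not tested with all arrays required above background. Wild-type values at the floor, 1 of 4 for let-7b* and 2 of 4 each for let-7d* and let-7f*, make these differences in part a distance from the floor. Both calls were lost on leaving out wild-type mouse 1, 2, 3 or 4 or megabladder mouse 2, and that of let-7b* also without megabladder mouse 4. let-7b* kept a positive difference in all 23 alternatives, from 0.15 to 1.0, with adjusted p from 0.0148 to 0.673. let-7d* ranged from 0.06 to 1.19 in the 22 that tested it (adjusted p from 0.0104 to 0.776), and let-7f* from 0.02 to 0.90.

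As a ratio on the same array, let-7b to let-7b* was 7.82 ± 0.30 (SD) on the 4 wild-type arrays and 6.72 ± 0.08 (SD) on the 3 megabladder arrays. let-7d to let-7d* was 6.49 ± 0.04 against 5.70 ± 0.13, and let-7f to let-7f* 7.34 ± 0.03 against 6.34 ± 0.22. None of the 3 ratios overlapped between genotypes (exact permutation p = 0.0286, adjusted 0.209), against 25.5% of all 22578 pairs without overlap. Wild-type starred values at the floor, and a filter that the 3 megabladder arrays alone can satisfy, enter these ratios too. Their separation, its p-value and the wild-type spread are in part set by these, so the p-value cannot decide whether the arms differ. With all arrays required above background, only the let-7b ratio could be formed, and it did not overlap. With normexp and no offset none of the 3 ratios separated the genotypes.

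**Figure D4:**
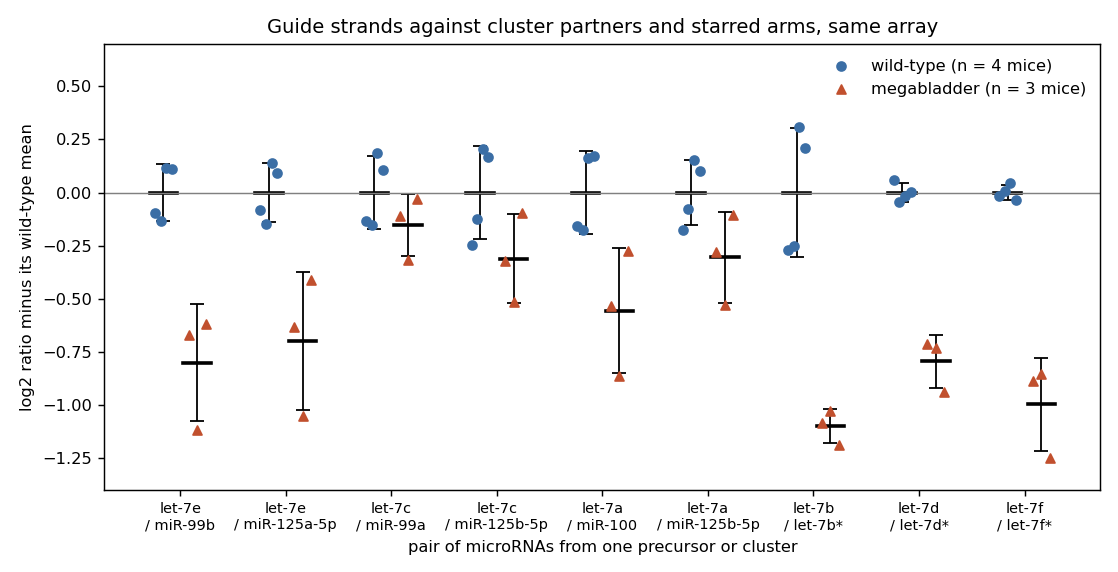
Log2 ratio of a guide strand to a cluster partner or to its own starred arm on the same array, with each ratio's wild-type mean set to 0; circles are 4 wild-type mice, triangles 3 megabladder mice, bars means and whiskers SD. The let-7e ratios lie at -0.80 and -0.70 on average in megabladder kidneys and the 3 ratios to starred arms between -1.10 and -0.80, while let-7c to miR-99a overlaps.

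Since members differ by as little as 1 base, their probes could share signal, and the values that bear on this are given here. Each member was read by 2 probes of 10 spots each, 18 probes in all. Of 1260 member spots 44 were flagged as outliers, and all 1216 others were well above background with none saturated. The spread between spots of a probe on an array (coefficient of variation) was 0.917% to 8.0%, with a median of 4.76%. The probe sequences are not among the sources used here.

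The total signal of let-7e was 8.31% to 12.3% of that of let-7a, its neighbour by U9G, over the 7 arrays. The total signal of miR-98, which differs from let-7a at 2 bases, was 3.20% to 3.65% of let-7a. Any let-7a RNA read by the miR-98 probes was thus at most that share of the let-7a signal. For let-7a, let-7b, let-7c and let-7f, whose signals were within 77.2% to 99.2% of each other, the same values set no such limit. How much of any member's signal came from another was not tested.

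In the median, pairs with 1 or 2 mismatches differed less between genotypes than pairs with 3 or 4, but the ranges overlapped. Absolute differences ran from 0.003 to 0.37 with 2 mismatches, 0.03 to 0.53 with 3 and 0.03 to 0.47 with 4. The single pairs with 5 and 6 mismatches were at 0.75 and 0.22. The median absolute difference of a pair's ratio between genotypes was 0.02 for the 4 pairs with 1 mismatch, 0.09 for the 10 with 2, 0.25 for the 11 with 3 and 0.22 for the 9 with 4. The pair of let-7a and let-7e, at 0.31, was the exception among the 4 nearest. Pairs share members and arrays, so these medians are a description with no test.

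The dimmer of the 2 probes of a member, 1.52- to 6.41-fold below the brighter, gave the lower difference in 9 of 9 members. Among the 148 microRNAs with 2 tested probes the same held for 70.9%. For let-7e the brighter probe gave -0.51 and the dimmer -0.64, both without overlap between genotypes. For let-7d the signs differed, 0.03 and -0.11. The gap between probes was wider in megabladder kidneys without overlap in 4 of the 9 members (let-7a, let-7c, let-7f and let-7g), against 19.6% of the 148. Megabladder arrays also had the lower scaling factors as a group. Megabladder mouse 4, with the lowest factor (224), had the narrowest megabladder gap in these 4 members. Among wild-type arrays, mouse 4, with the lowest factor (348), had the widest gap in them, and mouse 1, with the next lowest (391), the narrowest. The part of the scaling factors was not tested.

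**Figure D5:**
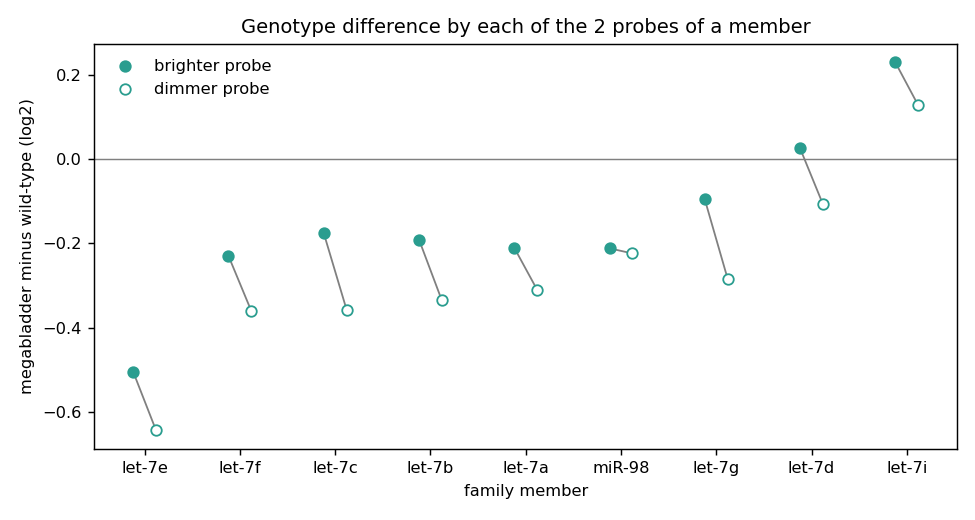
Difference in log2 level, megabladder minus wild-type, by the brighter (filled) and the dimmer (open) of each member's 2 probes, joined by a line. The open circle is below the filled one for each of the 9 members, and both let-7e probes lie below those of the other members, at -0.51 and -0.64.

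The microRNAs whose levels followed the members most closely over the 7 arrays were sought among all tested, by the root mean square difference of log2 levels centred on their means. let-7a and let-7f were nearest to each other, at 0.02 log2 units. Among microRNAs outside the family, miR-126-5p, an arm of an endothelial microRNA, was the nearest to let-7a (0.04), let-7f (0.05), let-7c (0.06), miR-98 (0.06) and let-7e (0.20). Its mean level, 4.92 in wild-type and 4.69 in megabladder kidneys, was below that of every member and nearer the floor of 3.51. The other, brighter arm, miR-126-3p, differed by -0.06 between genotypes, against -0.23 for miR-126-5p. miR-22* was the nearest to let-7b (0.08), miR-365 to let-7g (0.06), miR-200b, an epithelial microRNA, to let-7d (0.05) and miR-152 to let-7i (0.06). The median distance from let-7a to all tested microRNAs was 0.26. These likenesses are over 7 arrays that share their scaling factors.

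The nearest outside microRNA was farther from let-7e than from any other member. let-7e also had the largest spread over the arrays (SD 0.29, against 0.06 for let-7d to 0.22 for let-7b), and the distance grows with this spread. No microRNA outside the family was nearer to let-7e than let-7f, at 0.18. For let-7i, in contrast, 66 were nearer than its nearest relative, let-7d, and for let-7d 41 were nearer than miR-98. Of the cell type lists, endothelium had a median difference of -0.15 in its 2 tested members, miR-126-3p (-0.06) and miR-126-5p (-0.23). Its summed levels were 2001 to 2229 units in wild-type and 1895 to 2140 in megabladder kidneys. Leukocytes had a median of -0.15 in the 3 of 5 members tested (190 to 251 against 164 to 237), with miR-155 at -0.47, miR-142-3p at -0.15 and miR-223 at 0.04. Stroma had 0.39 in its 3 members (302 to 409 against 365 to 637). The ranges of all 3 lists overlapped, and their part in the member differences was not tested. In the urothelial list the 3 members differed by 1.23 (miR-205, at the floor of 3.51 on average in wild-type kidneys), -0.17 (miR-203) and 0.44 (miR-31), none past the threshold, and the summed levels overlapped, at 56.5 to 77.2 against 65.2 to 131 units.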

How the data were processed

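The authors scanned 1 single-colour Agilent microRNA array per kidney (100 ng RNA, Cy3, per the labels' protocols) and used Agilent Feature Extraction 10.7.3.1 (submitters' processing notes) to get spot values. Per the file headers, the deposited intensity columns are background-subtracted, and no scaling was applied across arrays. A value table of the authors, likewise intensity (20 to 9741 in whole numbers, each column's median 20), has an unstated scaling. Among the first 531 of its 650 names, all 241 above its floor lay within 1 log2 unit of their own signal; among the later ones 16 of 32 did, and 30 of 32 lay within 1 unit of the preceding name's. It was an alternative only, for 190 microRNAs and 8 members, without miR-98.

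Control and outlier spots were left out, probe means were divided by a factor per array (the 75th percentile of the 292 probes that every one of the 7 arrays detected), floored at 11.4 units, log2 transformed and averaged over a microRNA's probes well above background (at least 0.5 of spots) on at least 3 arrays. Limma 3.58.1 in R 4.3.3 (lmFit, eBayes) compared genotypes over 213 microRNAs, with Benjamini-Hochberg adjusted p under 0.05 as threshold. Within-array ratios were tested with 2-sided exact permutation; their p-values were adjusted over all 22578 pairs in place of a planned adjustment within each group of pairs.

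The members, partner and marker lists were chosen with earlier results of these data known. All 9 members, the starred arms, 8 cluster partners and each member's nearest microRNA were named by rule. Alternatives covered scaling, background, signal, filter, floor, probes, spots, test, block and single arrays; normexp used the median spot signal. Scripts were tested on simulated data. Wild-type and megabladder mice share replicate numbers, which are also the slide columns; deviations of same-numbered arrays correlated at -0.21 to 0.21 (3 pairs), so the numbers were not taken as pairs, and the block is an alternative. Sequences are RefSeq's; RefSeq coordinates are not given, since the files name another build.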

Additional observations from a re-analysis of the deposited data

Results flagged for a closer look

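Of 62 groups of values of 4 samples, 2 held 1 sample far from the other 3, and chance flags about 1 in 20. The level of let-7f* in wild-type mouse 4 was 3.60, where the other 3 wild-type mice were at 3.51, the floor or next to it. The log2 ratio of let-7d to let-7i in wild-type mouse 2 was 0.36, where the others were at 0.55 to 0.58.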

How the results depend on the processing

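let-7e was below wild-type and the lowest member in all 23 alternatives, and past the threshold in 9; its largest adjusted p was 0.673. Against 7 calls among all microRNAs and 1 among the members, scaling by all probes, quantiles, normexp with and without its offset, no filter and a floor of 1 each gave 0 and 0 in limma, with 107, 45, 35, 9, 40 and 30 microRNAs at an unadjusted p under 0.05. Unscaled signals gave 69 and 8, the total gene signal 2 and 0, and the replicate block, which drops wild-type mouse 1, 28 and 0 (let-7e adjusted p 0.0788). Scaling by the median gave 2 calls among all, probes above background on all arrays 4, the median of spots 15, the authors' deposited values 1 and an intensity trend 13, each with let-7e called. Leaving out 1 array gave 0 to 19 calls among all and 0 to 1 among the members; leaving out wild-type mice 3 and 4, chosen after seeing the data, gave 1 and 0. The median member difference was -1.0 with all probes, -0.42 with the median and -0.87 unscaled. Member ratios without overlap numbered 12, against 7 with normexp and no offset (also chosen after seeing the data) and 24 without wild-type mice 3 and 4; single arrays left out gave 12 to 15. Partner ratios without overlap numbered 3, against 5 with normexp and 3 to 5 with an array left out. Ratios to starred arms numbered 3, against 0 with normexp and no offset, 1 with probes above background on all arrays (1 ratio left to test) and 1 with the authors' values. Signs turned as follows. With all probes let-7i was at -0.56, miR-99b at -0.51, miR-100 at -0.44, miR-125a-5p at -0.61 and miR-125b-5p at -0.70; unscaled, they were at -0.43, -0.38, -0.32, -0.49 and -0.57. With quantiles let-7d was at 0.058, miR-99b at -0.14, miR-100 at -0.16 and miR-125a-5p at -0.10. With the median miR-125a-5p was at -0.032 and miR-125b-5p at -0.11. With normexp miR-98 was at 0.079 and miR-99a at 0.0049. let-7d was at 0.026 with the brightest probe, 0.0081 with the total gene signal and 0.086 with the authors' values (miR-100 there -0.13, miR-125b-5p -0.0073). With 1 array left out let-7d ranged from -0.078 to 0.014 and miR-125a-5p from -0.015 to 0.20, with the turned sign without megabladder mouse 3, and miR-125b-5p from -0.0047 (without wild-type mouse 3) to 0.092. Without wild-type mice 3 and 4 miR-125b-5p was at -0.067 and miR-125a-5p at -0.037. The causes were not tested. The wild-type values of the starred arms lay at or near the floor, whereas all kept spots of the members were well above background. The background correction moved members all the same. With normexp let-7e was at -0.37 (limma adjusted p = 0.262), and with no offset at -0.48 (limma adjusted p = 0.673).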
